A study of Mus musculus with 8 samples.

Results

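The genes described here are those that stood higher when BMEL cells had received a plasmid for GRHL2 than in control cells, outside the gene families most often discussed with this factor. BMEL cells are an established line of bipotential mouse embryonic liver cells, able to take on hepatocyte or cholangiocyte features. The RNA-seq comprised 8 samples taken 48 h after transfection. In 4 of them the plasmid coded for GRHL2 (GRHL2 samples) and in 4 it was pcDNA3 (control samples), with replicate numbers 1 to 4 in each group. All were grown on collagen in medium with serum, IGFII, EGF and insulin. The GRHL2 plasmid puts a Flag-tagged human GRHL2 cDNA behind the EEF1A1 promoter and also makes EGFP, a green fluorescent marker, which pcDNA3 lacks, so effects of GRHL2 and of the rest of the plasmid cannot be told apart. Transfection is transient and no sorting of transfected cells is described, so each value is an average over cells with and without plasmid, in which more RNA per cell and more responding cells cannot be told apart. The study counts the samples of a group as independent biological replicates, whereas the labels do not say that they came from separate cultures, so the spread given here may be technical in part.

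A gene was taken when its lowest value in the 4 GRHL2 samples exceeded its highest value in the 4 control samples and its group means differed by at least 0.6. Genes of the Grhl, Cldn, Egr, Fos, Jun, Ovol, Krt, Spint, Gst, Cyp, Ccl, Cxcl, Il, Itg, Lam, Col, Mmp and Adam families were left out, together with Epcam, Prss22, Ehf, Elf3, Esrp1, Rab25, St14 and Cdh1. Of the 18671 genes in the deposited table, 128 passed both thresholds, which is 0.686% of the table, and 111 of these remained. The values were read as log2 values per transcript length (the regularized logarithm, rlog, less the log2 of length). That reading is an assumption: the table is named for FPKM but holds values below 0, and the methods speak of rlog values divided by length. On it a difference of 1 is a doubling, and folds of low genes are understated, since the rlog shrinks differences of genes with few reads. The difference between the groups chose these genes, so it is given as a description and without a test.

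GRHL2 (Grainyhead-like 2) is a transcription factor of epithelial cells that binds DNA as a dimer and activates genes of junctions, barrier and epithelial identity. Grainyhead proteins are known from insects to mammals for building and repairing surface barriers, and in liver GRHL2 is expressed in cholangiocytes and low in hepatocytes. Barrier epithelia such as epidermis use cornified envelope proteins, very long chain ceramides, membrane serine proteases, and a spectrin and actin skeleton beneath the membrane. Neuronal genes are listed here too, and their usual roles are given below only as background.

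Grhl2 itself, the factor's own mouse gene and not one of the 111, read 6.30, 6.96, 5.65 and 6.05 in GRHL2 replicates 1 to 4 and 4.68, 4.57, 4.42 and 4.44 in control replicates 1 to 4. Replicate 2 was highest and replicate 3 lowest among the GRHL2 samples. How many of these reads came from the human cDNA was not tested. Samples fell into replicates 1 and 2 against replicates 3 and 4 in both groups: in limma, a linear model across all genes with moderated variances, 10.4% of all genes were called higher and 9.56% lower in replicates 1 and 2 at a Benjamini-Hochberg adjusted p under 0.05, with the group in the model. The labels name no batch. The 10 markers of liver epithelium, Krt8, Krt18, Krt19, Afp, Alb, Hnf4a, Foxa2, Sox9 and Cdh1 among them, had mean values over 5. In limma, 1 of the 10 was called higher with GRHL2 (Cdh1, 0.29 ± 0.07, adjusted p = 0.0199) and 1 lower (Afp, -0.21 ± 0.05, adjusted p = 0.0124). With the replicate number as a block, 4 were called higher and 1 lower. Among markers of other liver cells, 0 of 6 endothelial, 0 of 4 erythroid, 1 of 6 stellate (Col1a1) and 1 of 6 leucocyte genes (Cd68) had a mean over 5. Some of these low markers were higher with GRHL2 in limma: Vwf of endothelium (0.21 ± 0.03, adjusted p = 0.00129), Pdgfrb (0.11 ± 0.02, adjusted p = 0.00886) and Reln (0.11 ± 0.03, adjusted p = 0.0164) of stellate cells, and Klf1 of red cell precursors, with 0 lower. With the replicate number as a block in the model, 3 of 6 endothelial, 1 of 4 erythroid, 3 of 6 stellate and 1 of 6 leucocyte markers were called higher and 0 lower, and their part in the differences below was not tested. Sequencing depth is unknown, as rlog values do not hold read totals.

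The differences of the 111 genes ran from 0.60 to 1.55 with a median of 0.71, or 1.52-fold to 2.92-fold with a median of 1.63-fold. In all, 23 genes differed by more than 1, 16 by 0.8 to 1, and 72 by less than 0.8. The genes were of low to moderate level: the control mean had a median of 4.92 (range 1.98 to 10.08) against 6.44 over all genes of the table, and 52.3% of the 111 were under 5 against 41.4% of all genes. G6pdx (glucose-6-phosphate dehydrogenase) was the highest in control cells. Just inside the threshold of 0.6 stood Pkp3, Prph and Klhdc8a, all at 0.60, and just outside it stood Padi4 at a rounded 0.60, Dlx3 at 0.59 and Mpzl2 at 0.59. Another 5 genes differed by at least 0.6 but overlapped between groups: Pdk1 (0.74), Serpinb2 (0.72), Bnip3 (0.71), Gprc5c (0.64) and Prr15l (0.60).

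**Figure D1:**
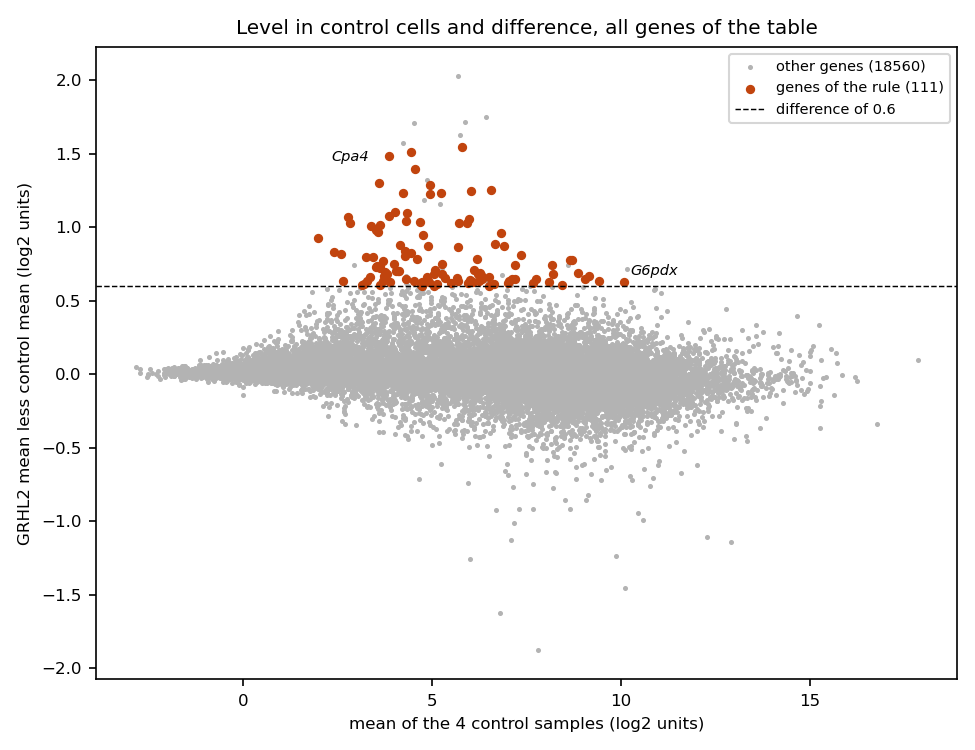
Mean of the 4 control samples (x axis, log2 units) against GRHL2 mean less control mean (y axis, log2 units) for every gene of the table, with the 111 genes of the rule in orange, all others in grey and the threshold of 0.6 dashed. The 111 genes lie between control levels of 1.98 and 10.08, and grey points above the line belong to the families left out or to genes whose groups overlap.

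Of the role groups, which were drawn up after the genes were known, the one of epidermal barrier genes held Tchh, Cers3 and Ivl among the 20 largest differences. Tchh encodes trichohyalin, a structural protein of the hair follicle sheath that is cross-linked into cornified cells, and its values with GRHL2 were 6.03, 6.47, 5.67 and 5.68 in replicates 1 to 4, while the controls read 4.41, 4.44, 4.47 and 4.48. The control samples were nearly level, and the GRHL2 samples split into replicate 2, replicate 1, and the lower pair 3 and 4, with a difference of means of 1.51 (2.85-fold). Cers3, the ceramide synthase that makes the very long chain ceramides of the skin barrier, read 6.28, 6.67, 5.94 and 6.06 with GRHL2 and 4.94, 4.98, 4.99 and 4.90 without, a difference of 1.28 in which replicate 2 was again highest. Ivl, involucrin, a scaffold of the cornified envelope, read 6.07, 6.07, 6.28 and 6.27 with GRHL2 and 4.88, 4.99, 4.96 and 4.97 in the controls. Its GRHL2 samples were tight, and replicates 3 and 4 were the higher pair, with a difference of 1.22. The other members of this group were Hr (hairless, a corepressor of the hair cycle, 0.88), Sfn (14-3-3 sigma or stratifin, 0.78), Aloxe3 (an epidermal lipoxygenase of the barrier, 0.68), Sprr2a3 (a small proline-rich envelope protein, 0.68), Mab21l4 (0.65) and Tmem79 (mattrin, a membrane protein of the granular layer, 0.63). Sprr2a3 has near-identical copies between which reads may be split, and 43.9% of the exon bases of Tmem79 overlap Glmp on the other strand in an unstranded count, so both values are uncertain. Glmp itself differed by 0.09. Relatives of Sprr2a3 and Cers3, picked after the 111 were known, had smaller differences. Of the 5 other small proline-rich genes Sprr2a1 was called higher (0.10 ± 0.02, adjusted p = 0.00953) and Sprr1a was not (0.26 ± 0.13, adjusted p = 0.225), though it was with the replicate number as a block (adjusted p = 0.00547). Of the 4 other ceramide synthases 0 were called in limma, and Cers2 was called lower with the block (difference -0.11, adjusted p = 0.019).

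The promoters of 4 of these 111 genes are printed below because each holds a motif of interest close to the start of transcription: the AP-1 motif TGANTCA in Cpa4, Ivl and Syt8, which are the 3 of the 20 genes with the largest differences that have it, and the Grainyhead core AACNNGTT in Sfn. Each line gives the 250 bases before the start site from RefSeq on GRCm38.p6, written 5′ to 3′ on the gene's own strand in lower case, with the motif in capitals.
Cpa4 promoter, chr6:30568119-30568368, plus strand: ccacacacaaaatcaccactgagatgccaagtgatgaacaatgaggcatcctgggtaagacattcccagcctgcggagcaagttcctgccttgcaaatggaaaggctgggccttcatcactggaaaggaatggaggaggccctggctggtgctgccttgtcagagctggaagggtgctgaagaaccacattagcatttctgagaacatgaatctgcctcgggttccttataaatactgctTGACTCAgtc
Ivl promoter, chr3:92573736-92573985, minus strand: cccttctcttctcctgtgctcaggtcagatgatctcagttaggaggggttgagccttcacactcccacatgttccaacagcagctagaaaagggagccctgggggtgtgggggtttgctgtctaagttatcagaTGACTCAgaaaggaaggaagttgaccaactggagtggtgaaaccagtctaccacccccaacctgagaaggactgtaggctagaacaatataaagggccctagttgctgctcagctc
Syt8 promoter, chr7:142434600-142434849, plus strand: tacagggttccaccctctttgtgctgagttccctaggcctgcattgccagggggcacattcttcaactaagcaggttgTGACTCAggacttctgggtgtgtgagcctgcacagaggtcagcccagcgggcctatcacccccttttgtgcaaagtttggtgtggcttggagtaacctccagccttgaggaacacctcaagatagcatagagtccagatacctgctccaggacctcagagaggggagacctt
Sfn promoter, chr4:133602169-133602418, minus strand: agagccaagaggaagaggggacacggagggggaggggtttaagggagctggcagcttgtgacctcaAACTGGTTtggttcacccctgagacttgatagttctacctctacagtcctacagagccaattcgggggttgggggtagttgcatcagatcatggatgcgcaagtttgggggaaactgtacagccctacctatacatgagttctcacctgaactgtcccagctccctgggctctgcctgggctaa

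Counting the base just before the start site as -1, the AP-1 match in Cpa4 began at -10, that in Ivl at -116 and that in Syt8 at -172, all reading TGACTCA, and the match in Sfn, AACTGGTT, began at -184. Promoter windows of 300 bases (250 before the start site and 50 from it on) were found for 77 of the 111 genes and for 12883 genes of the table, and motifs were searched on both strands. The full Grainyhead palindrome AACCGGTT was in the windows of 0 of the 77 genes and in 0.256% of all genes, which says only that these letters are not in these windows. The wider core AACNNGTT, which contains that palindrome, was in 5 of the 77 (Fcgr3, Prokr2, Sfn, Ak4 and G6pdx), which is 6.49%, against 4.18% of all genes. TGANTCA was in 7 of the 77 (Cpa4, Ivl, Syt8, Macc1, Sphk1, Mab21l4 and Tmem40), which is 9.09%, against 7.20% of all genes. The windows of these 77 genes had a median GC content of 62.7% against 59.7%, and a CpG ratio over 0.6 in 54.5% against 60.9% of windows. A match of letters is not a bound site, and distal elements lie outside these windows.

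Genes of the membrane skeleton and of filaments formed a group of 11 with a median difference of 0.75. Sptb, the beta spectrin of red cells, read 5.38, 5.74, 5.04 and 5.21 against 4.25, 4.53, 4.24 and 4.17, a difference of 1.04. Kif5a, a kinesin heavy chain that carries cargo along microtubules, read 5.40, 5.87, 5.31 and 5.27 against 4.21, 4.37, 4.21 and 4.12, a difference of 1.23. In both genes replicate 2 was the highest sample of each group. The others had smaller values: Espn (espin, which bundles actin in microvilli and stereocilia) at 0.88, Ank1 (the ankyrin that ties spectrin to membrane proteins) at 0.75, the FERM-domain gene Epb41l4a at 0.71, Plekhh3 at 0.68, Whrn (whirlin, a stereocilia scaffold) at 0.66, Map7 (a microtubule-associated protein) at 0.63 and Prph (peripherin, an intermediate filament protein of neurons) at 0.60. Sptb and Ank1 are also abundant in red cells. Of the 4 erythroid markers, Hba-a1, Alas2 and Klf1 had means of 2.03 to 3.31 in either group. Klf1, a transcription factor of red cell precursors, was called higher with GRHL2 (0.25 ± 0.03, adjusted p = 0.000563, and adjusted p = 0.000578 with the replicate number as a block), and the 3 other markers were not called in either fit. The log2 summed level of the 4 ran from 4.63 to 4.68 with GRHL2 and from 4.52 to 4.58 in the controls, and their part in these differences was not tested.

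Of the 4 spectrins of the table outside the 111 genes, 1 rose and 0 fell, and 1 rose and 2 fell with the replicate number as a block. These relatives were picked after the 111 genes were known and are tested with limma over all 18671 genes, of which 10.5% were called higher and 5.91% lower with GRHL2, and 18.2% and 13.9% with the block. With the samples set to an equal upper quartile, which moved the median of all genes by only 0.02, 75.9% of calls were higher in place of 63.9%, and 16.4% of all genes were called higher and 5.21% lower. With an equal sum of the samples these shares were 15.6% and 4.65%. Sptan1, the alpha spectrin of most cells outside blood, had a mean of 11.47 with GRHL2 and 11.76 in controls and was not called (difference ± SE -0.29 ± 0.11, adjusted p = 0.0994). Sptbn1 was not called either (-0.17 ± 0.07, adjusted p = 0.12). Both were called lower once the replicate number was a block, with adjusted p = 0.000629 and 0.00649. Sptbn4 rose slightly (0.09 ± 0.02, adjusted p = 0.024) and Sptbn5 was not called. Of the other ankyrins, Ank2 (0.14 ± 0.09, adjusted p = 0.31) and Ank3 (-0.02 ± 0.08, adjusted p = 0.872) did not pass, and Ank2 was called higher with the block (adjusted p = 0.0247).

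**Figure D2:**
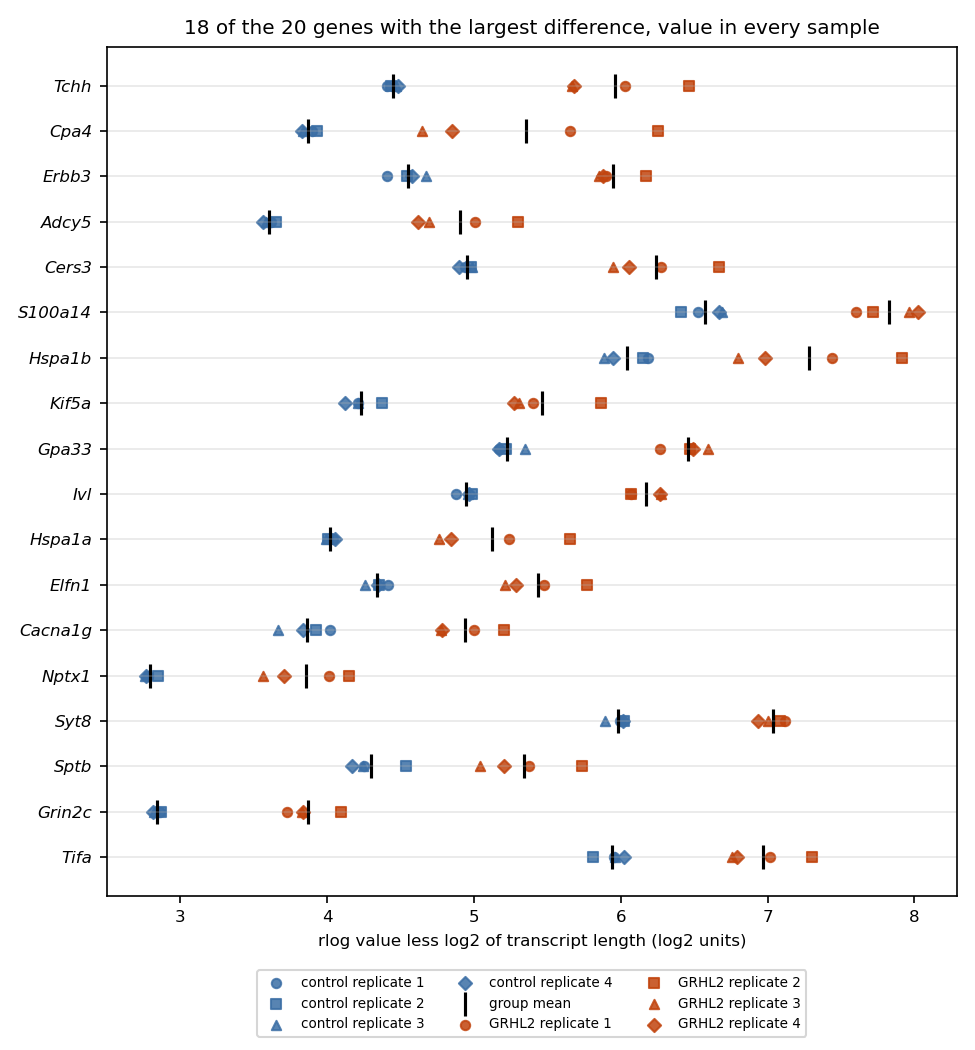
Value in every sample (x axis, rlog value less log2 of transcript length, log2 units) of 18 of the 20 genes with the largest difference, GRHL2 samples in orange and control samples in blue, with a marker shape for each replicate number and a bar at each group mean. GRHL2 replicate 2 (squares) is the highest GRHL2 sample in these genes, with S100a14, Gpa33, Ivl and Syt8 as exceptions, and the 4 samples of Cpa4 with GRHL2 are the most widely spread.

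Proteases and secreted proteins were led by Cpa4, a secreted carboxypeptidase. Cpa4 read 5.66, 6.25, 4.64 and 4.85 in GRHL2 replicates 1 to 4 and 3.90, 3.93, 3.83 and 3.82 in control replicates 1 to 4. The controls were nearly level, whereas the GRHL2 samples ran from 4.64 to 6.25, and the difference of 1.48 (2.79-fold) averages 2.04 in replicates 1 and 2 and 0.92 in replicates 3 and 4. The other proteases were Ace (angiotensin-converting enzyme, 0.97), Prss27 (marapsin, a membrane serine protease, 0.94), Plau (urokinase, which activates plasminogen, 0.65) and Prss8 (prostasin, an activator in the matriptase cascade of epithelia, 0.62). Secreted or matrix proteins were Plxdc2 (0.82), Ism1 (isthmin, 0.70) and Sned1 (0.70). In Sned1, 19.5% of exon bases overlap Mterf4 on the other strand.

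Receptor kinases and growth signals formed the largest role group, with 17 genes and a median difference of 0.82. Erbb3, the receptor for neuregulins that signals through its partner ERBB2, read 5.90, 6.17, 5.85 and 5.88 in GRHL2 replicates 1 to 4 and 4.41, 4.55, 4.67 and 4.58 in the controls. Replicates 1, 3 and 4 with GRHL2 were within 0.05 of each other and replicate 2 stood above them, for a difference of 1.40 (2.64-fold). Among its relatives, Erbb2 rose (0.34 ± 0.05, adjusted p = 0.00272), while Egfr (-0.10 ± 0.13, adjusted p = 0.662) and Erbb4 (0.04 ± 0.01, adjusted p = 0.0692) were not called. Erbb4 was called higher with the replicate block (adjusted p = 0.0374). Adcy5, an adenylyl cyclase that makes cyclic AMP, read 5.01, 5.30, 4.69 and 4.62 against 3.62, 3.65, 3.58 and 3.56, a difference of 1.30. A second cyclase, Adcy8, differed by 0.63, and 0 of the 7 other adenylyl cyclases were called in limma (3 higher and 1 lower with the replicate block). Tifa, an adaptor that links sensed bacterial sugars to NF-kB, read 7.02, 7.30, 6.76 and 6.79 against 5.95, 5.81, 5.96 and 6.02, a difference of 1.03 with GRHL2 replicates 1 and 2 above 3 and 4.

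The remaining receptors and kinases of that group were Ltk (a receptor tyrosine kinase related to ALK, 1.03), Ephb2 (an ephrin receptor, 1.01), Npr1 (the receptor for atrial natriuretic peptide, 0.84), Notch3 (0.64), Wnk2 (0.83), Prkd1 (protein kinase D1, 0.63), Tnik (0.61) and Sphk1, which makes sphingosine-1-phosphate (0.66). Spns2, the exporter of that lipid, stood at 0.87 among the transporters. Scaffolds and regulators were Mapk8ip2 (a scaffold of the JNK pathway, 0.98), Macc1 (0.82) and Mlkl (the executor of necroptosis, 0.65). In the Wnt pathway, the ligand Wnt7b read 9.54, 9.75, 9.39 and 9.23 with GRHL2 and 8.75, 8.79, 8.64 and 8.62 without, a difference of 0.78. Adgra2, known as a co-receptor for Wnt7 ligands, stood at 0.71 and Nkd2, an inhibitor of Wnt signalling, at 0.61. The 3 other Notch receptors were not called, either with or without the replicate block.

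G protein-coupled and adhesion receptors numbered 9, with a median difference of 0.71. P2ry6, which senses UDP, read 5.79, 5.999, 5.64 and 5.70 with GRHL2 and 4.90, 4.95, 4.88 and 4.90 in the controls, and P2ry2, which senses ATP and UTP, read 8.23, 8.24, 8.16 and 8.09 against 7.32, 7.16, 7.45 and 7.54. These receptor genes lie 21.9 kb apart on chromosome 7, with differences of 0.87 and 0.81. Of the 5 other P2Y genes in the table, P2ry1 rose (0.29 ± 0.04, adjusted p = 0.00216) and the rest were not called, though P2ry14 (0.13 ± 0.04, adjusted p = 0.064) was called higher with the replicate block (adjusted p = 0.0215). Prokr2, a prokineticin receptor, differed by 0.80. Of 23 adhesion receptor genes (Adgr) in the table, 5 were among the 111: Adgra2, Adgrl1 (0.66), Adgrl2 (0.63), Adgrg6 (0.61) and Adgrb1 (0.61). Of the 18 others only Adgrf1 was called (0.32 ± 0.05, adjusted p = 0.00151), and 4 were called higher with the replicate block.

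Synaptic and axon guidance genes, 6 in number, had the highest median among groups of more than 2 genes, 1.04. Elfn1, a postsynaptic adhesion protein that recruits glutamate receptors, read 5.48, 5.77, 5.21 and 5.29 with GRHL2 and 4.42, 4.35, 4.26 and 4.34 in the controls, a difference of 1.10. Nptx1, a secreted neuronal pentraxin, read 4.01, 4.15, 3.56 and 3.71 against 2.78, 2.85, 2.76 and 2.77, a difference of 1.07. Syt8, a synaptotagmin of vesicle fusion, read 7.12, 7.08, 7.01 and 6.93 against 5.997, 6.02, 5.89 and 6.01. Its GRHL2 samples lay close together, with replicate 1 highest, and the difference was 1.05. Grin2c, a subunit of the NMDA receptor, read 3.73, 4.09, 3.83 and 3.83 against 2.86, 2.87, 2.82 and 2.81, a difference of 1.03 at a low level. Ntn1 (netrin-1, a guidance cue) and Unc5c (a netrin receptor) were both included, at 0.73 and 0.63.

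Channels and transporters numbered 8. Cacna1g, a T-type calcium channel, read 5.00, 5.20, 4.77 and 4.78 with GRHL2 and 4.02, 3.92, 3.66 and 3.83 in the controls, a difference of 1.08. Its T-type relative Cacna1h stood at 0.70, and the third T-type gene, Cacna1i, rose by less (0.19 ± 0.04, adjusted p = 0.0155). Of the 8 other alpha 1 subunits of voltage-gated calcium channels, 4 were called higher (Cacna1b, Cacna1c, Cacna1i and Cacna1s) and 0 lower, all at values of 2.15 or less, and both counts were the same with the replicate block. The 2-pore potassium channels Kcnk13 (0.80) and Kcnk1 (0.61) were also included, while Kcnk5 (0.20 ± 0.05, adjusted p = 0.0295) and Kcnk10 (0.08 ± 0.02, adjusted p = 0.0207) rose among their 8 relatives (3 with the block). Slc4a11 (a transporter of the bicarbonate family, 0.69), Trpm4 (a calcium-activated cation channel, 0.64) and Slc43a2 (an amino acid transporter, 0.62) complete the group.

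Junction and surface genes were mostly close to the threshold, with a median of 0.66. Gpa33, the A33 surface antigen of intestinal epithelium, differed most in this group, at 6.27, 6.47, 6.59 and 6.49 with GRHL2 and 5.17, 5.22, 5.35 and 5.17 without, a difference of 1.23 with GRHL2 replicate 3 highest. Mdga1, a lipid-anchored adhesion protein, differed by 1.01 and Psca, another lipid-anchored surface protein, by 0.78. Ocln (occludin, a tight junction membrane protein) read 6.51, 6.65, 6.61 and 6.53 against 5.95, 5.84, 5.91 and 6.12, a difference of 0.62. The desmosomal plakophilins Pkp1 and Pkp3, armadillo proteins that anchor desmosomal cadherins, stood at 0.60 and 0.60, while Pkp2 (-0.10 ± 0.05, adjusted p = 0.181) and Pkp4 (-0.21 ± 0.07, adjusted p = 0.0757) were not called. Pkp4 was called lower with the replicate block, with adjusted p = 0.00273. Mcam (0.69), Bcam (a laminin receptor, 0.68), Mal (a raft protein of apical transport, 0.66), Igsf9 (0.64) and Emp2 (0.63) were the others.

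S100a14, an EF-hand protein of epithelia, read 7.60, 7.72, 7.96 and 8.03 in GRHL2 replicates 1 to 4 and 6.53, 6.41, 6.69 and 6.67 in control replicates 1 to 4. Replicates 3 and 4 were the higher pair in both groups, and the difference was 1.25 (2.38-fold). Of the 13 other S100 genes in the table, S100a16 (0.49 ± 0.08, adjusted p = 0.0041) and S100a11 (0.13 ± 0.04, adjusted p = 0.0398) rose and 0 fell, and 3 rose and 1 fell with the replicate block. The inducible heat shock genes Hspa1b and Hspa1a, chaperones made after protein stress, were both included. Hspa1b read 7.44, 7.91, 6.80 and 6.98 against 6.19, 6.15, 5.88 and 5.94, a difference of 1.24, and Hspa1a read 5.24, 5.65, 4.76 and 4.84 against 4.04, 4.002, 3.99 and 4.05, a difference of 1.10. In both genes the GRHL2 samples ran in the order of replicates 2, 1, 4 and 3. Their coding sequences are nearly identical and reads may be split between them, so they may hold one signal. Other members of the Hsp70 family did otherwise: Hspa5 of the endoplasmic reticulum (-0.30 ± 0.06, adjusted p = 0.0118) and Hspa9 of mitochondria (-0.37 ± 0.08, adjusted p = 0.0114) fell, the constitutive Hspa8 was not called (0.08 ± 0.05, adjusted p = 0.286), and Hspa12a rose (0.12 ± 0.02, adjusted p = 0.00929). Of the 11 others in all, 1 was called higher and 2 lower, and 3 and 5 with the replicate block.

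Transcription factors and cofactors numbered 8 and spanned a narrow range, 0.63 to 0.80. They were Dmrt3 (0.80), Mycl (a MYC family member, 0.78), the homeobox gene Vax1 (0.75), the corepressor Rcor2 (0.74), the TEAD cofactor Vgll3 (0.73), the thyroid hormone receptor Thrb (0.68), Tfap2c (AP-2 gamma, 0.66) and Nr5a1 (steroidogenic factor 1, 0.63). Enzymes of lipid, redox and nucleotide metabolism had the highest levels, with a median control value of 7.12: Dgat2, which makes triglycerides (0.74), Kyat1 (0.68), Smpdl3b (0.66), the adenylate kinase Ak4 (0.65), the fucosidase Fuca2 (0.63), G6pdx (0.63) and the spermine oxidase Smox (0.62). In G6pdx, 13.6% of exon bases overlap Ikbkg on the other strand, which differed by -0.33. Of immune surface genes, Fcgr3, a receptor for IgG, stood at 0.87 and Icosl, a ligand of T cells, at 0.74. Among 6 leucocyte markers Ptprc, Cd3e, Cd79a and Lyz2 were under 3, Csf1r near 4.5 and Cd68 over 6 in both groups. Of the 6, 0 were called in limma at an adjusted p under 0.05, and Cd68 was called higher with the replicate block (difference 0.16, adjusted p = 0.0205). Their log2 summed level ran from 6.76 to 6.83 with GRHL2 and from 6.58 to 6.77 in controls, and their part in the values of Fcgr3 and Icosl was not tested. The others, with no role given here, were Lratd1 (0.96), Ccdc40 (0.77), Pgbd5 (0.72), Pitpnm3 (0.69), Rbpms2 (0.66), Epn3 (an epsin of endocytosis, 0.65), Asphd2 (0.63), Usp43 (0.63), Tent5c (0.63), Ankrd34b (0.61), Tmem40 (0.61) and Klhdc8a (0.60).

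**Figure D3:**
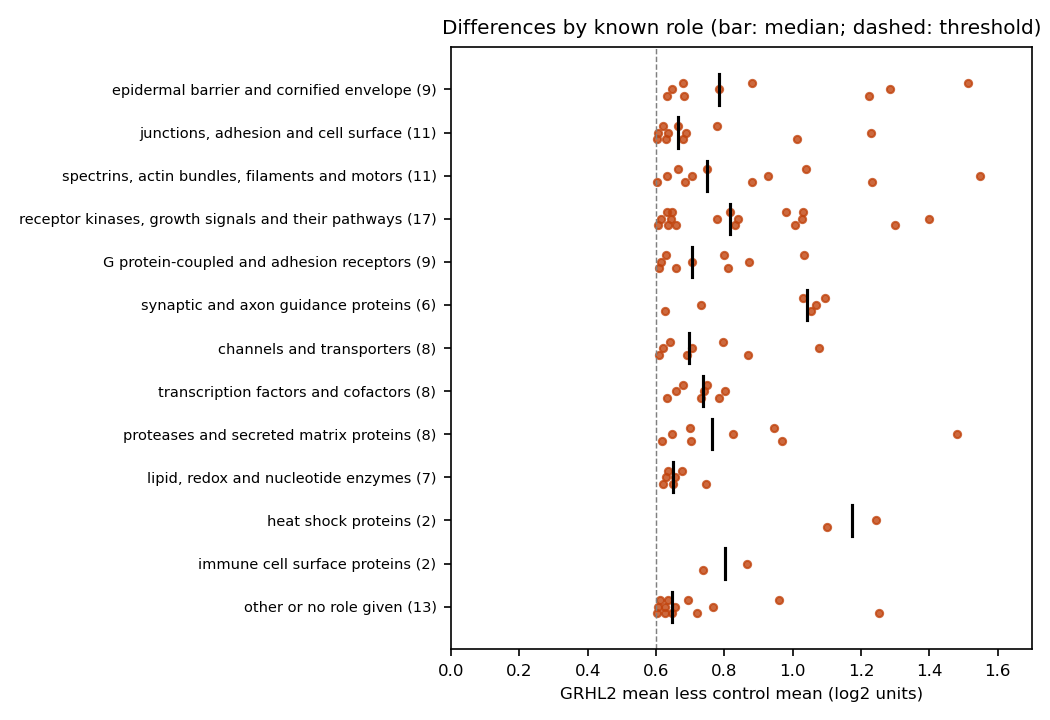
GRHL2 mean less control mean (x axis, log2 units) of each of the 111 genes, grouped by known role (y axis, number of genes in parentheses), with a bar at each group's median and a dashed line at the threshold of 0.6. Role groups were drawn up after the genes were known; the synaptic group has a median of 1.04 and the junction group one of 0.66.

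The 111 genes were spread over the genome. By symbol, 109 of them matched GENCODE M21 on GRCm38 (not Lratd1 and Mab21l4), all protein coding and on 20 chromosomes. There were 15 pairs of neighbours within 1 Mb, involving 27 genes. On chromosome 3, S100a14 (chr3:90526856-90528837) lay 61.0 kb from Npr1 (chr3:90450591-90465866), and Sprr2a3 (chr3:92285417-92291405), Ivl (chr3:92570902-92573735) and Tchh (chr3:93442330-93449077) followed within the epidermal differentiation complex, 279 kb and 869 kb apart. Cacna1g and Epn3 were 15.4 kb apart on chromosome 11, and Hspa1b and Hspa1a 9.95 kb apart on chromosome 17. Cpa4 (chr6:30568369-30592418) and Erbb3 (chr10:128567523-128589652) had no such neighbour. The transcripts had a median GC content of 55.7% (109 genes) against 50.6% over 18428 genes and a median length of 2.20 kb against 1.68 kb. Exons of 32 genes overlapped another gene, on the other strand in 31 of them, and in 7 the overlap exceeded 10% of exon bases: Tmem79, Sned1, Hspa1a, G6pdx, Adgrl1, Usp43 and Npr1. Counting was unstranded, so reads of such partners cannot be told apart there.

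The order of the samples among the 111 genes is given as a description, because the rule used these same values and a high sample helps a gene to pass, so the shares of all genes are no yardstick for it. Without GRHL2 replicate 2 the rule chose 89 genes, 81 of them among the 111. GRHL2 replicate 2 was the highest GRHL2 sample for 87 of the 111, against 36.6% of all genes, and the lowest was replicate 3 for 44 and replicate 4 for 39. The SD over GRHL2 samples had a median of 0.16 and that over control samples one of 0.075 (n = 4 each), and it was larger with GRHL2 in 91 of the 111 (82.0%) against 52.3% of all genes. Grhl2 had the same order at the top, with pair differences (GRHL2 less control of the same number) of 1.61, 2.38, 1.23 and 1.61 in replicates 1 to 4. The differences of the 111 genes had medians of 0.73, 0.94, 0.67 and 0.65 in these pairs. With 4 pairs this is a description of order, not a tested relation.

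Under the same limit, the difference averaged over replicates 1 and 2 had a median of 0.82, and over replicates 3 and 4 one of 0.63. It was larger in replicates 1 and 2 for 102 of the 111 genes (91.9%) against 51.4% of all genes. Cpa4 parted most, at 2.04 against 0.92. Hspa1a followed at 1.43 against 0.78, Tchh at 1.83 against 1.20 and Hspa1b at 1.51 against 0.98. Larger in replicates 3 and 4 were 9 genes, namely Bcam, Ivl, S100a14, Gpa33, Sprr2a3, Ak4, Pitpnm3, Slc43a2 and Adgrg6. The interaction test of limma called 0 of the 18671 genes (0.0%), with a smallest adjusted p of 0.515. At an unadjusted p under 0.05 it held 1094 of the 18671 genes, 43 of them among the 111 and 42 of those larger in replicates 1 and 2. Nothing is read from the counts among the 111, since the rule chose these genes on the same GRHL2 values. With 0 genes called, no single gene was shown to differ in its GRHL2 difference between the pairs of replicates.

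**Figure D4:**
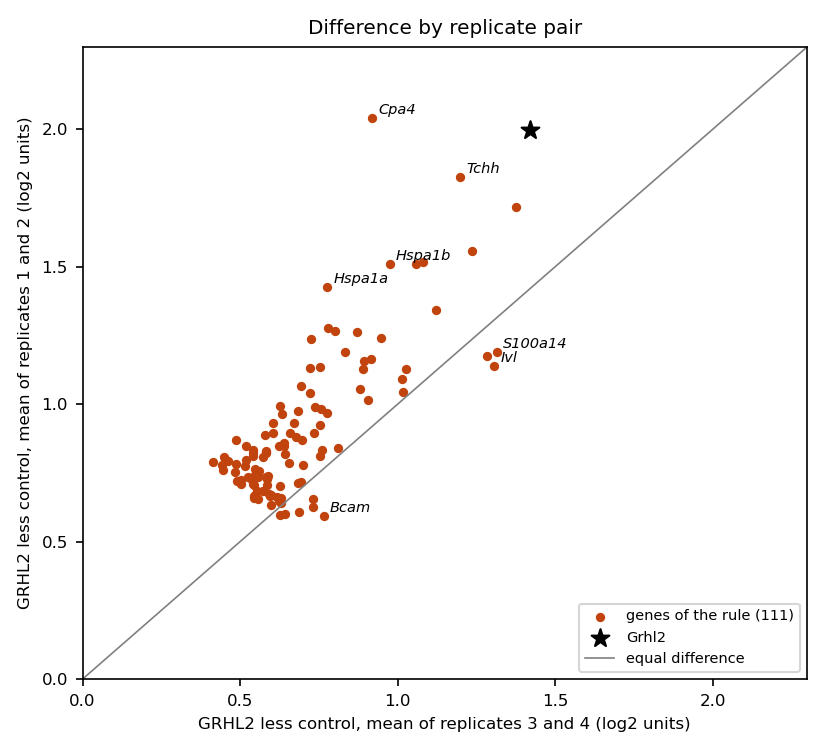
GRHL2 less control averaged over replicates 3 and 4 (x axis, log2 units) against the same over replicates 1 and 2 (y axis, log2 units) for the 111 genes, with Grhl2 as a star and the line of equal difference. Points above the line, 102 of the 111, have the larger difference in replicates 1 and 2, with Cpa4 farthest from the line.

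Replicates 1 and 2 were also compared in level with replicates 3 and 4, averaged over both groups, as a description, since the contrast holds the GRHL2 values that the rule used. In limma, with the group in the model, 21 of the 111 were called higher in replicates 1 and 2 (18.9%) and 12 lower (10.8%). The shares of all genes were 10.4% and 9.56%, and nothing is read from the difference between these shares. Cpa4 was higher by 0.65 ± 0.20 (SE), an average of 1.21 among the GRHL2 samples and 0.08 among the controls. Hspa1b was higher by 0.52 ± 0.12 and Unc5c, a netrin receptor, by 0.41 ± 0.09, again with the larger part among the GRHL2 samples (0.79 against 0.25 and 0.58 against 0.25). Bcam, the laminin receptor, was lower by a coefficient of -0.43 ± 0.06 and Igsf9 by -0.37 ± 0.05, and both were lower in either group. The 10 others that were lower were Emp2, S100a14, Ak4, Slc43a2, Trpm4, Slc4a11, Pitpnm3, Adgrl2, Usp43 and Adgrg6, with surface proteins and transporters among them. The count of 21 fell to 8 without GRHL2 replicate 3 and to 8 without GRHL2 replicate 4.

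Each pair of same-numbered samples was also read on its own. When replicate 2 was left out, the other 3 pairs selected 85 genes by the rule, and all 85 were higher with GRHL2 in replicate 2, by a median of 1.01 in that pair and 0.73 in the others. Without replicate 1 the other pairs selected 107 genes, all higher in replicate 1 with a median of 0.72, the lowest being Upk3b at 0.41. Without replicate 3 there were 121, all higher in replicate 3 with a median of 0.65 and the lowest Ppp2r2c at 0.29. Without replicate 4 there were 129, all higher in replicate 4 with a median of 0.61 and the lowest Mpzl3 at 0.30. Over all genes of the table, 51.7%, 53.3%, 54.5% and 54.1% were higher with GRHL2 in replicates 1 to 4. The values of the left-out pair were not used for the choice. Those of the pair on its side of the split (1 with 2, 3 with 4) were, and such pairs had correlated deviations. This is therefore a description and not an independent test. The genes stood higher in each of the 4 pairs, with a median below that of the other pairs in replicates 3 and 4 and above it in replicate 2. In left-out replicates 1 to 4, 88 of 107, 78 of 85, 75 of 121 and 65 of 129 genes reached 0.6.

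Gene lists of the pathways around these genes were drawn up with earlier results of these data known. The rule had already taken each listed gene with groups apart and a difference of at least 0.6, and the lists were read for their other members. Of 128 such genes in 6 lists, 35 rose and 8 fell in limma (Benjamini-Hochberg over all genes), against 10.5% higher and 5.91% lower in the whole table, and with the replicate block 59 rose and 15 fell. As shares of the 128 these are 27.3% and 6.25%, and with the block 46.1% and 11.7% against 18.2% and 13.9% in the whole table. With an equal upper quartile 48 rose and 8 fell (37.5% and 6.25%), beside the 16.4% and 5.21% given above. Junction and polarity genes counted 34 in the table, 3 of them among the 111 (Ocln, Pkp1 and Pkp3). Of the 31 others 9 rose, 2 fell and 20 were not called (13 rose and 3 fell with the block), with a median difference of 0.06 against 0.01 for all genes. The largest rise was in Mpzl2, an epithelial adhesion protein (0.59 ± 0.07, adjusted p = 0.000558), and the largest fall in Mpp5, a polarity scaffold (-0.34 ± 0.06, adjusted p = 0.00599). Membrane traffic genes counted 17, with Mal among the 111. Of the other 16, 8 rose and 1 fell (11 and 2 with the block), with a median of 0.20: Elmo3 rose most (0.50 ± 0.11, adjusted p = 0.0157) and Sytl2, a Rab effector, fell (-0.17 ± 0.04, adjusted p = 0.0248). The call of Sytl2 was lost with an equal sum of the samples and without any 1 of GRHL2 replicates 1 and 2 and control replicate 3.

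Membrane serine proteases and serpins counted 19, of which Prss8, Prss27 and Plau were among the 111. Of the 16 others 3 rose and 0 fell, with a median of 0.03, and 7 rose and 2 fell with the replicate block. Among the calls without the block Tmprss11e rose most, at a low level (0.14 ± 0.03, adjusted p = 0.01). Larger differences in Serpinb2 (0.72 ± 0.28, adjusted p = 0.114), Tmprss2 (0.51 ± 0.17, adjusted p = 0.0667) and Serpinb5 (0.42 ± 0.14, adjusted p = 0.0638) were called with the block only, with adjusted p = 0.00301, 7.95e-05 and 0.00692. Genes of the growth factor and ERK response outside Egr, Fos and Jun counted 37, with 0 among the 111, of which 4 rose and 5 fell (12 and 8 with the replicate block). The orphan nuclear receptor Nr4a3 rose most (0.42 ± 0.08, adjusted p = 0.00755) and Atf3, a stress-induced factor, fell most (-0.69 ± 0.20, adjusted p = 0.0439), a call that was lost without any 1 of GRHL2 replicates 1, 3 and 4 and control replicates 1, 2 and 3, and without a mean-variance trend. Ion and water transport genes counted 18, with Kcnk1 among the 111, and 5 of the 17 others rose and 0 fell (9 and 0 with the block), led in the fit without the block by the water channel Aqp5 (0.21 ± 0.04, adjusted p = 0.00692). With the block another water channel, Aqp1, was called with a larger difference (0.26, adjusted p = 0.0143). Planar cell polarity genes and transglutaminases counted 11, with 0 among the 111, and 6 of them rose and 0 fell (7 and 0 with the block), with a median of 0.24. Celsr2, a cadherin of planar polarity, rose most (0.50 ± 0.05, adjusted p = 0.000329), and Tgm1, the transglutaminase that cross-links involucrin in skin, rose too (0.27 ± 0.06, adjusted p = 0.0191), a gene named here after its value was seen.

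The gene lists used by the study, drawn from human data other than these samples, were compared by membership. Mouse symbols were matched to them without regard to case. The families left out of the 111 were kept in these lists and in the shares of all genes. Of the 835 symbols in the copy of its Epith-Signature used here, 655 were in the table, and 27 of these were among the 111, which is 4.12% of the list and 24.3% of the 111, while the list makes up 3.51% of all genes. Among them were Cers3, S100a14, Espn, Macc1, P2ry2, Sfn, Mycl, Wnt7b, Pgbd5, Pitpnm3, Aloxe3, Mal, Smpdl3b, Plau, Epn3, Igsf9, Map7, Tmem79, Usp43, Ocln, Prss8, Kcnk1, Tmem40, Pkp1, Klhdc8a and Pkp3. The other 628 genes of that list had a median difference of 0.08. Of 44 cholangiocyte-enriched genes, Syt8 and Macc1 were among the 111, which is 4.55% of the list and 1.80% of the 111, while the list makes up 0.236% of all genes. Of 284 hepatocyte-enriched genes, Elfn1, Espn, Mycl, Dgat2 and Ak4 were, which is 1.76% of the list and 4.50% of the 111 against 1.52% of all genes. Of the largest differences, those of Tchh, Cpa4, Erbb3, Adcy5 and Ivl belong to genes in none of these lists.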

How the data were processed

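RNA-seq was performed on 8 BMEL samples, grouped and numbered from their labels. As the methods describe it, reads were mapped by the authors with HISAT2 to mm10 and counted on exons with HTSeq without strand, genes under 10 reads in total were dropped, and rlog values of DESeq2 were taken relative to transcript length, with GRCm39 also named. The submitters' processing notes list HISAT2 2.2.1, HTSeq 0.9.1 and DESeq2 1.40.2, whereas the methods, whose account begins with public data, name other versions of HISAT2 and DESeq2. That this account also holds for these samples is an assumption. The authors' deposited values were treated as log2 values, and as rlog less the log2 of length, although the table is named for FPKM, since 4.81% of them are below 0; the depth is unknown and no pseudocount was used.

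The rule was applied to the deposited values. The 111 genes, the gene lists and the relatives were chosen with earlier results of these data known. Tests used limma 3.58.1 in R 4.3.3 (mean-variance trend, Benjamini-Hochberg over 18671 genes, adjusted p under 0.05), tested on simulated data. Models were group, group with replicates 1 and 2 against 3 and 4, and their interaction. The labels' replicate numbers were taken to pair the samples, because deviations from the group means of same-numbered samples correlated (r across genes 0.474, 0.565, 0.549 and 0.645); deviations of replicates 1 and 2, and of 3 and 4, correlated with each other too (0.344 to 0.602). Named genes were the 20 largest differences with every sample (2 of them and a few other genes are not reported here), all others by difference and role, those at the threshold, those parting most between replicates, and the largest called rise and fall in each list. Alternatives were scaling, threshold, a filter on mean value, the replicate block, no trend, left-out samples and the motif, and, added after the data were seen, a correction for transcript GC content. Positions are from GENCODE M21 and promoters from RefSeq, both on the GRCm38 assembly.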

Additional observations from a re-analysis of the deposited data

Results flagged for a closer look

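A sample that stood far from the other 3 was sought in 66 groups of 4 samples, for 33 genes. These were the 20 with the largest differences, the largest called rise and fall in each gene list, Pkp3, Prph, Klhdc8a and Grhl2. Of the 66 groups 2 held such a sample, where chance alone gives about 1 in 20. Erbb3 in GRHL2 replicate 2 read 6.17, above the other GRHL2 samples, and its gap to the nearest of them was 0.848 of the group's range. Klhdc8a, a gene just inside the threshold, read 5.22 in control replicate 3, above the other controls, with a gap of 0.844 of the range.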

How the results depend on the processing

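The number of genes chosen by the rule was 111. It was 176 with a threshold of 0.5, 39 with 0.8 and 23 with 1, and stayed within 1.5 times of 111 with an equal upper quartile (119), an equal sum (120), a filter on genes with a mean under 1 (111) and a correction for transcript GC content (92, of which 91 are among the 111). Leaving out samples gave 89 to 118 genes and leaving out a pair of the same number 85 to 129. In the gene lists, calls among genes outside the 111 were 35 higher and 8 lower. With the replicate block they were 59 and 15, and with the block and the GC correction 55 and 16. Leaving out each sample gave 28 to 37 higher and 5 to 9 lower, with 5 lower without GRHL2 replicate 1, without control replicate 1 or without control replicate 3. The 21 of the 111 that were higher in replicates 1 and 2 became 13 without a mean-variance trend and 8 to 31 when a sample was left out, and the 12 that were lower 11 to 13. The motif share of 0 became 6.49% with the wider core. The cause of these moves was not tested, apart from the thresholds and the motif, whose construction gives it. The direction of the 20 leading genes is fixed by their choice, so the 320 alternatives computed for them bear only on size; Cpa4 moved most, from 1.18 to 1.72. Of 134 alternatives for the 9 list genes named by the rule, 11 lost the call (all in Sytl2 and Atf3) and 0 reversed. The alternatives for a pseudocount did not apply to log2 values. Unknown depth limits what can be said of low genes.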
